A study of Homo sapiens with 4 samples.

Results

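The TRPM family comprises 8 genes for cation channels of the melastatin group, and 2 of them carry a microRNA of the miR-204 family in an intron: TRPM3 is the host of miR-204 and TRPM1 the host of miR-211. The members were taken as the features whose platform gene symbol was TRPM1 to TRPM8. Each of the 8 symbols had 1 feature, so all 8 genes were measured among the 17687 distinct symbols of the array. The other 6 channels served as the family background for the 2 hosts. The rule for members used no measured value, though the family was chosen with earlier results of these data known.

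The arrays came from HeyA8-MDR, a human ovarian carcinoma line selected for multidrug resistance. On 2 arrays the cells had received an inhibitor of miR-204-5p, and on the other 2 a control microRNA inhibitor. Both groups were grown with 15% serum, gentamicin (0.1%) and paclitaxel (300 ng/ml), so every value comes from 1 cell line grown with a taxane. The treatment note is worded alike for all 4 arrays, and the groups rest on the sample titles read with the design text. A microRNA inhibitor is an antisense strand that pairs with the mature microRNA and blocks it. The values are log2 expression values, in which a difference of 1 is a doubling.

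TRPM proteins are membrane channels of the transient receptor potential superfamily that let cations through in response to calcium, temperature, lipids or nucleotides. An intronic microRNA is cut out of the transcript of its host gene, so the host and the microRNA can share a promoter. In melanocytes TRPM1 and miR-211 are transcribed together under the factor MITF, and in the retinal pigment epithelium and choroid plexus TRPM3 and miR-204 are abundant. Blocking a mature microRNA acts after this shared transcription step.

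The mature strands are shown first, because the inhibitor is directed at 1 of them and the 2 hosts give rise to near-identical products. Capitals mark the seed, bases 2 to 8 from the 5′ end, which guides target pairing. The sequences are from RefSeq on GRCh38.p14, all on the minus strand.
hsa-miR-204-5p, chr9:70810031-70810052: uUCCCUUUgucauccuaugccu
hsa-miR-211-5p, chr15:31065095-31065116: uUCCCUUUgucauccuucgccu
hsa-miR-204-3p, chr9:70809993-70810013: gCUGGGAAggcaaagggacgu
hsa-miR-211-3p, chr15:31065059-31065079: gCAGGGACagcaaaggggugc
The 5p strands shared the seed and 20 of 22 bases, and differed by A17U and U18C (the base of miR-204-5p, its position from the 5′ end, the base of miR-211-5p). Of 2370 mature names in the RefSeq table, only these 2 carried this seed. The seeds of the 3p strands differed from each other.

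The hairpins from which both strands are cut are shown with the 5p strand in capitals.
MIR204 hairpin, chr9:70809975-70810084: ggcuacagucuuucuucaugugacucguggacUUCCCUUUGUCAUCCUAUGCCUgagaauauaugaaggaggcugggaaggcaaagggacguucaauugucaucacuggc
MIR211 hairpin, chr15:31065032-31065141: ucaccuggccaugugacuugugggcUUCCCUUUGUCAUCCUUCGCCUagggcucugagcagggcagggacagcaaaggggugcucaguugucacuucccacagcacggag
Each hairpin of 110 bases lay inside its host gene on the same strand. RefSeq promoters placed 2 starts of TRPM3 at 636.9 and 311.5 kb upstream of MIR204, and 2 starts of TRPM1 at 96.0 and 36.6 kb upstream of MIR211. No hairpin of the table lay inside any of the other 6 TRPM genes. The mature microRNAs were not analysed here, and the position of the array probes relative to the hairpins was not used here, so the values below are those of the host transcripts.

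Across the whole array, Pearson correlations over features were 0.986 between the inhibitor arrays, 0.995 between the controls and 0.984 to 0.989 between groups. The median within-group SD per feature was 0.15 log2 units in the inhibitor arrays and 0.09 in the controls. With limma, 11 of 21448 features passed an adjusted p of 0.05 (0.0513%), 11 higher and 0 lower. That count and its direction depended on the setting: it was 1525 (219 higher, 1306 lower) with an intensity trend in the prior, and 0 with a replicate block, after quantile normalization or without any 1 array. In the reported fit 17.9% had an unadjusted p under 0.05, of which 1096 were higher and 2735 lower. This second split was 1409 higher and 1523 lower after quantile normalization, 1607 and 1943 with equal array medians, and 1494 and 1486 after cyclic loess. The difference depended on the level of a feature: its median was 0.075, -0.01, -0.12 and -0.205 in the dimmest to the brightest quartile of features. Of the carcinoma markers, KRT8, KRT18, KRT7 and PAX8 lay in the brightest quartile of features and EPCAM and CDH1 in the dimmest. ABCB1, the drug efflux pump that marks such resistant lines, had 7.67 and 7.55 in the inhibitor arrays and 7.68 and 7.77 in the controls. The labels do not state whether replicates came from separate cultures, so p-values reflect array-to-array spread that may be technical only. In bulk RNA, fewer cells with a transcript and less transcript per cell cannot be told apart.

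None of the 8 TRPM genes passed an adjusted p of 0.05 with limma, at a background of 0.0513% of features. At an unadjusted p under 0.05, 2 were higher with the inhibitor, TRPM3 and TRPM6, against 5.11% of all features higher, and 0 were lower against 12.8%. The unadjusted p of TRPM3 stayed under 0.05 in 7 of 13 other settings and was 0.111 with an intensity trend, 0.125 with quantile normalization and that trend, 0.0691 in an ordinary test and up to 0.222 with 1 array left out. That of TRPM6 stayed under 0.05 in 10 of 13, and was 0.114 in an ordinary test and 0.0709 or 0.0688 without 1 control array. Inhibitor means were higher for 3 genes and lower for 5, against 40.2% and 59.2% of all features. The median log2 difference of the family was -0.055, close to the median of -0.07 over all features, and it was -0.01 after quantile normalization and 0.01 with equal array medians. Its members spread widely around it, with differences between -0.47 for TRPM7 and 0.85 for TRPM6. Of the 2 hosts, TRPM3 differed by 0.38 and TRPM1 by 0.06.

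**Figure D1:**
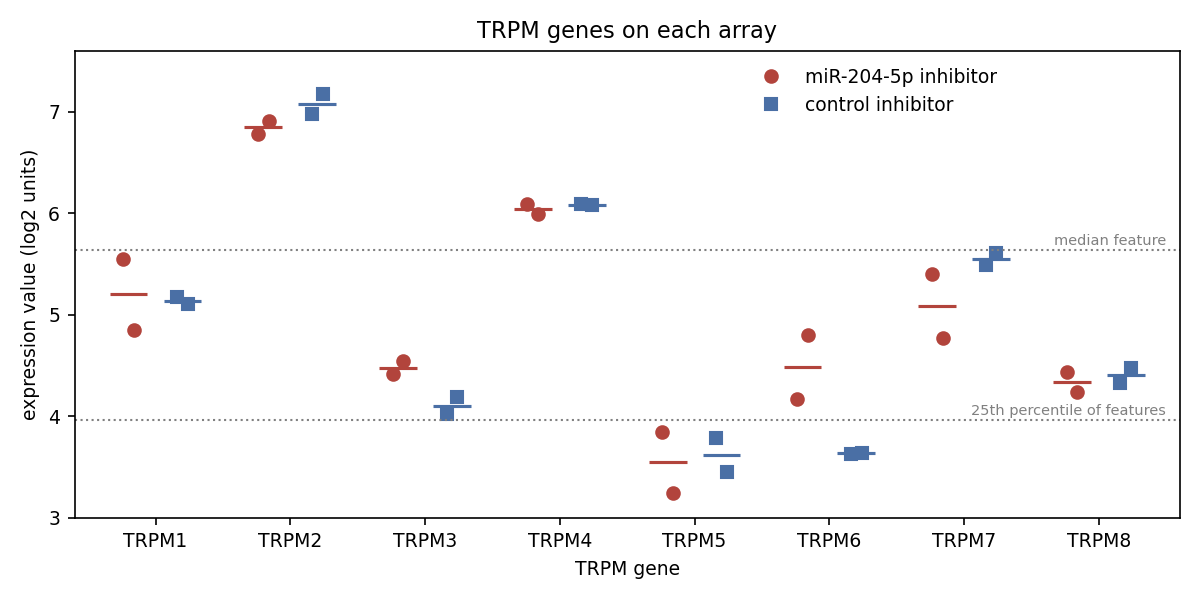
Expression values in log2 units of the 8 TRPM genes on each array, with inhibitor arrays as red circles and control arrays as blue squares, replicate 1 left of replicate 2, and bars for group means (n = 2 arrays each). Inhibitor and control values do not overlap for TRPM3 and TRPM6 (inhibitor higher) or for TRPM2 and TRPM7 (inhibitor lower); dotted lines mark the 25th percentile and the median of mean levels over all features.

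TRPM3, the miR-204 host, encodes a calcium-permeable channel that responds to heat and to neurosteroids. Its feature, TC0900010370.hg.1, gave 4.42 and 4.54 log2 units in the inhibitor arrays and 4.02 and 4.19 in the control arrays. Both inhibitor arrays lay above both controls, and the gap between the groups exceeded the distance between arrays of either group. The means were 4.48 ± 0.08 with the inhibitor and 4.105 ± 0.12 in the controls (SD, n = 2 each). The log2 difference was 0.38 (SE 0.15, 95% interval 0.02 to 0.73), which is 1.30-fold, with an unadjusted p of 0.042 and an adjusted p of 0.26 from limma. TRPM3 therefore stayed short of the threshold. Its interval ran from close to 0 to a value short of a doubling.

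The position of TRPM3 among other features puts this value in scale. Over the whole array 7.12% of features had a difference at least as high, and 9.2% did so in the second dimmest quartile, where TRPM3 lies. In that quartile 19.3% of features had both inhibitor arrays above both controls, and 6.22% were higher at an unadjusted p under 0.05. TRPM3 was dim: its control mean stood just above the 25th percentile of feature means (3.965). Signal over background was not analysed here.

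TRPM1, the miR-211 host, encodes a channel of retinal ON bipolar cells and melanocytes. It had 5.55 and 4.85 in the inhibitor arrays and 5.17 and 5.11 in the control arrays. The inhibitor arrays lay on either side of the controls, so the groups overlapped. The log2 difference was 0.06 (SE 0.24, 95% interval -0.50 to 0.62, adjusted p = 0.92 from limma). The inhibitor SD of 0.495 was large, and 5.88% of features had one at least as large, while the control SD was 0.04. Without inhibitor array 1 the difference was -0.29, and without inhibitor array 2 it was 0.41, so its direction was set by 1 array. The interval includes differences as large as that of TRPM3, so the 2 hosts were not shown to differ.

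Within each array, TRPM3 minus TRPM1 was -1.13 and -0.31 log2 units in the inhibitor arrays and -1.15 and -0.92 in the controls. The mean of this ratio was higher by 0.315 with the inhibitor, but inhibitor array 1 lay between the 2 controls. The offset between these genes carries no meaning, because the probes of different features bind with different strength.

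**Figure D2:**
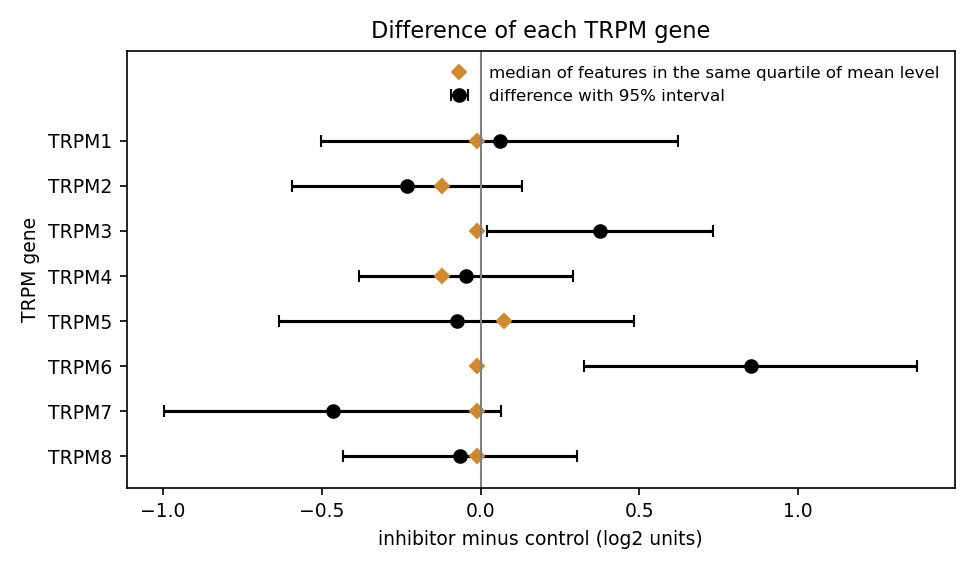
Log2 difference (inhibitor minus control) of each TRPM gene with its 95% interval from limma (black, n = 2 arrays per group), and the median difference of all features in the same quartile of mean level (orange diamonds). The intervals of TRPM3 and TRPM6 lie above 0, and those of the other 6 genes include 0.

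TRPM6 and TRPM7 are the channel kinases of the family: each joins a channel that conducts magnesium and other divalent cations to an alpha-kinase domain. TRPM6 is known for magnesium uptake in kidney and intestine, and TRPM7 is found in most cell types. TRPM6 had 4.17 and 4.80 in the inhibitor arrays and 3.63 and 3.64 in the controls. Both inhibitor arrays exceeded both controls, though they stood 0.63 apart while the controls nearly coincided. The means were 4.485 ± 0.45 with the inhibitor and 3.635 ± 0.01 in the controls (SD, n = 2 each). Its log2 difference of 0.85 (SE 0.22, 95% interval 0.33 to 1.37) was the largest of the family and corresponds to 1.80-fold.

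TRPM6 had an unadjusted p of 0.0066 and an adjusted p of 0.17 from limma, so it did not pass either. A difference this high or higher was seen for 0.518% of all features and for 0.708% of those in its quartile of mean level. The control mean of 3.635 lay within the dimmest 25% of features. Leaving out inhibitor array 1 gave 1.165 and leaving out inhibitor array 2 gave 0.535, so the size, though not the direction, varied by array. Its adjusted p was lowest with an intensity trend in the prior, at 0.0557, and ranged from 0.105 to 0.834 over the remaining settings.

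TRPM7 had 5.40 and 4.77 in the inhibitor arrays and 5.49 and 5.61 in the controls. Both inhibitor arrays lay below both controls, array 1 only narrowly. The log2 difference was -0.465 (SE 0.22, 95% interval -0.99 to 0.06, unadjusted p = 0.076, adjusted p = 0.33 from limma). At -0.78 without inhibitor array 1 and -0.15 without inhibitor array 2, it depended on array 2 for most of its size. In its quartile of mean level 22.6% of features had both inhibitor arrays below both controls.

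The paired channel kinases thus had differences of opposite sign. Within each array TRPM6 minus TRPM7 was -1.23 and 0.03 in the inhibitor arrays and -1.86 and -1.97 in the controls, a change of 1.315 log2 units in their ratio. This pair was picked after its values were seen and carries no test. Inhibitor array 2 held the highest TRPM6 value and the lowest TRPM7 value of the 4 arrays. The inhibitor SD of both genes was 0.45, and 8.32% of features had one at least as large.

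TRPM4 and TRPM5 are calcium-activated channels for monovalent cations, which do not conduct calcium themselves. TRPM4 had 6.09 and 5.99 in the inhibitor arrays and 6.09 and 6.08 in the controls, with a difference of -0.045 (SE 0.14, 95% interval -0.38 to 0.29). It was the steadiest member, and its sign turned to 0.05 after quantile normalization, 0.02 with equal array medians and 0.05 after cyclic loess. TRPM5, known from taste cells, had 3.85 and 3.24 in the inhibitor arrays and 3.79 and 3.45 in the controls. Its groups overlapped, with a difference of -0.075 (SE 0.23, 95% interval -0.63 to 0.48), and it was the 1 member whose mean lay in the dimmest quartile of features. For TRPM5 the intervals leave room for a change of about the size seen for TRPM3 in either direction.

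TRPM2 encodes a calcium-permeable channel opened by ADP-ribose, which links it to oxidative stress. It had 6.78 and 6.91 in the inhibitor arrays and 6.98 and 7.17 in the controls, so all inhibitor values were lower. The difference was -0.23 (SE 0.15, 95% interval -0.59 to 0.13, adjusted p = 0.46 from limma). In its quartile of mean level the median difference was -0.12 and 39.5% of features had both inhibitor arrays below both controls, and after quantile normalization the TRPM2 difference was -0.08. TRPM8, the cold and menthol receptor, had 4.44 and 4.24 in the inhibitor arrays and 4.33 and 4.48 in the controls. These overlapped, and the difference was -0.065 (SE 0.15, 95% interval -0.43 to 0.30), or 0.0 with equal array medians.

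Counted over the family, the inhibitor arrays did not overlap the controls for 4 of 8 genes, against 50.3% of all features. The 2 with higher inhibitor values, TRPM3 and TRPM6, compare with 16.5% of features, and the 2 with lower ones, TRPM2 and TRPM7, with 33.8%. The 4 genes with a wide spread between inhibitor arrays were TRPM1, TRPM5, TRPM6 and TRPM7, with SDs between 0.43 and 0.495. TRPM2, TRPM3, TRPM4 and TRPM8 had inhibitor SDs between 0.07 and 0.14, at or under the median of features.

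**Figure D3:**
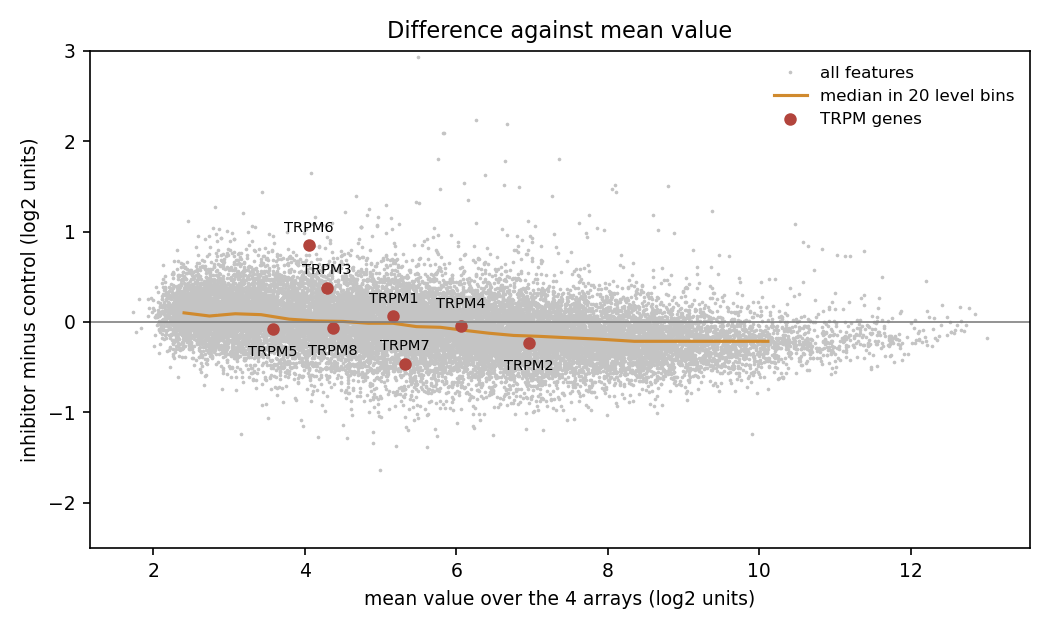
Log2 difference (inhibitor minus control) against the mean value over the 4 arrays in log2 units for all 21448 features (grey), their median in bins of mean value (orange line) and the 8 TRPM genes (red). The orange line is above 0 for dim features and below 0 for bright ones; TRPM3 and TRPM6 lie above it and TRPM7 below it.

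The other TRP channels were examined to see how the rest of the superfamily stood. Of 19 listed genes 16 were measured, 12 had higher and 4 lower inhibitor means, and 0 passed an adjusted p of 0.05 in either direction. Their median difference was 0.13, against -0.055 for the TRPM family and -0.07 for all features. Most are dim genes, 9 of 16 in the dimmest quartile, where 61.4% of all features had higher inhibitor means. TRPC7, a diacylglycerol-activated calcium channel, had 4.67 and 4.55 in the inhibitor arrays and 4.12 and 4.02 in the controls (log2 difference 0.54, SE 0.14, adjusted p = 0.18 from limma). TRPV1, the capsaicin receptor, had 5.62 and 5.30 against 5.01 and 5.02 in the controls (difference 0.445, SE 0.16, adjusted p = 0.24). TRPA1, the receptor for irritants such as mustard oil, had 2.32 and 2.40 against 1.99 and 2.15 in the controls. TRPC7 and TRPV1 were the 2 of 16 higher at an unadjusted p under 0.05, against 5.11% of all features.

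Genes of magnesium transport were listed beside TRPM6 and TRPM7. All 16 were measured, 6 had higher and 9 lower inhibitor means, 1 was equal, and 0 passed an adjusted p of 0.05. Their median difference was -0.11, and 0.05 after quantile normalization. CNNM4, a magnesium exporter of epithelia, had 5.47 and 5.46 in the inhibitor arrays and 5.86 and 6.10 in the controls (difference -0.515, SE 0.15, adjusted p = 0.19 from limma). SLC41A1, another magnesium efflux protein, had 7.74 and 7.38 against 7.95 and 7.99 in the controls (difference -0.41, adjusted p = 0.28). CNNM1, a relative of CNNM4, had 4.34 and 4.60 against 4.37 and 3.83, and its groups overlapped.

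The alpha-kinases outside the TRPM family had lower inhibitor means in 3 of 3 measured genes of 4 listed, with a median of -0.335 and 0 past an adjusted p of 0.05. ALPK2 had 6.32 and 6.38 in the inhibitor arrays and 7.04 and 7.24 in the controls (log2 difference -0.79, SE 0.15, adjusted p = 0.14 from limma). With an intensity trend in the prior it was the 1 of 3 that passed, at a background of 6.09% of features lower in that fit. EEF2K, the kinase of elongation factor 2, had 6.33 and 6.09 against 6.49 and 6.60 in the controls. ALPK3, a muscle gene, had 3.86 and 3.26 against 3.74 and 3.89, with overlap. TRPM6 was thus the 1 of 5 measured alpha-kinase genes with a higher inhibitor mean.

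Enzymes of ADP-ribose and NAD metabolism, some of which make or remove the TRPM2 ligand, had 3 of 11 higher and 8 lower inhibitor means. The median was -0.20, and 0 passed an adjusted p of 0.05. PARP1, the main poly(ADP-ribose) polymerase, had 6.76 and 6.86 in the inhibitor arrays and 7.54 and 7.62 in the controls (difference -0.77, SE 0.14, adjusted p = 0.14 from limma). It was the 1 of 11 genes that passed with an intensity trend, against 6.09% of all features lower in that fit. NUDT9, a mitochondrial ADP-ribose hydrolase related to the C-terminal domain of TRPM2, had 6.26 and 6.31 against 6.58 and 6.73 in the controls. CD38, an ectoenzyme that forms ADP-ribose, had 2.76 and 2.81 against 3.09 and 3.07. Each of these 3, named for the largest statistics of the list, had both inhibitor arrays below both controls, as TRPM2 did. Over the whole list this held for 5 of 11 genes, against 33.8% of all features. In 1 gene of the list both inhibitor arrays lay above both controls.

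The lipid PIP2 keeps many TRPM channels open, and phospholipase C removes it. Of 13 genes for PIP2 synthesis and phospholipase C, 3 had higher and 10 lower inhibitor means, the median was -0.14, and 0 passed an adjusted p of 0.05. PLCE1 had 5.19 and 5.34 in the inhibitor arrays and 6.13 and 5.98 in the controls (difference -0.79, SE 0.15, adjusted p = 0.14 from limma). It was the 1 of 13 genes that passed with an intensity trend, against 6.09% of all features lower in that fit. With quantile normalization and that trend 0 of 13 passed. PLCB4 had 6.12 in both inhibitor arrays and 5.58 in both controls (difference 0.54, SE 0.14, adjusted p = 0.17). PLCD3 had 6.03 and 5.70 against 6.10 and 6.13 in the controls.

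The next lists are tied to single channels. Of the TRPM4 partners 2 of 5 were measured: ABCC8, the SUR1 subunit, had 4.35 and 4.67 in the inhibitor arrays and 4.33 and 4.49 in the controls, and KCTD5, a ubiquitin ligase adaptor, had 9.66 and 9.61 against 9.62 and 9.61. Both overlapped, as TRPM4 itself did. Of 10 genes of taste cell signalling around TRPM5, 6 had higher and 4 lower inhibitor means, with a median of 0.135 and 0 past an adjusted p of 0.05. The taste G protein GNAT3 had 3.27 and 2.74 against 2.66 and 2.32 in the controls, GNG13 had 5.85 and 5.56 against 5.49 and 5.47, and the channel gene CALHM3 had 4.62 and 4.88 against 4.62 and 4.37.

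Genes of the cascade that controls TRPM1 in retinal ON bipolar cells had 3 of 9 higher and 6 lower inhibitor means. The median was -0.045 (0.02 with equal array medians), and 0 passed an adjusted p of 0.05. GNB5, a G protein subunit, had 5.43 and 5.49 in the inhibitor arrays and 5.74 and 5.92 in the controls. RGS7, its partner, had 3.17 and 2.83 against 3.52 and 3.32, and RGS11 had 4.49 and 4.27 against 4.15 and 4.0. These 3 did not share a direction.

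Regulators reported for TRPM1 or TRPM3 were also compared. Of 9 genes, 3 had higher and 6 lower inhibitor means, the median was -0.07 (0.04 after quantile normalization), and 0 passed an adjusted p of 0.05. MITF had 6.05 and 5.54 in the inhibitor arrays and 5.95 and 6.06 in the controls, with overlap. For MITF inhibitor array 1 lay above inhibitor array 2. The same order was seen for TRPM1, TRPM4, TRPM5, TRPM7 and TRPM8, and the opposite order for TRPM2, TRPM3 and TRPM6. A link between MITF and TRPM1 was not tested. PAX3 had 4.71 and 4.89 against 4.67 and 4.48 in the controls, TFEC had 3.01 and 2.58 against 2.49 and 2.64, and VHL, the ubiquitin ligase component lost in clear cell kidney cancer, had 6.80 and 6.93 against 7.04 and 7.05. The largest absolute difference in this list was 0.23, for TFEC.

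Hosts of other intronic microRNAs were compared with the 2 TRPM hosts. Of 39 listed genes 37 were measured, and inhibitor means were higher for 11 and lower for 26. Of all features 59.2% had lower inhibitor means, and 66.8% did in the second brightest quartile, where the median level of these hosts lies. The median difference was -0.175, and 0 passed an adjusted p of 0.05. With an intensity trend in the prior 8 passed, all lower, at a background of 6.09% of features. With quantile normalization and that trend 2 passed, both lower, at a background of 1.19% of features. After quantile normalization the median was -0.07. Unadjusted p under 0.05 was found for 2 higher and 9 lower hosts, against 5.11% and 12.8% of all features. PTK2 and IGF2 held no hairpin of the RefSeq table inside the gene, and without them the counts over 35 hosts were 11 higher and 24 lower, with 2 and 8 at an unadjusted p under 0.05 and a median of -0.17. MCM7, the replication factor that hosts miR-25, miR-93 and miR-106b, had 9.05 and 9.11 in the inhibitor arrays and 9.64 and 9.88 in the controls (difference -0.68, SE 0.15, adjusted p = 0.16 from limma). R3HDM1, a host of miR-128, had 7.46 and 7.45 against 8.09 and 8.17, and RCL1, a host of miR-101, had 6.95 and 7.05 against 7.58 and 7.72. TRPM3 lay on the higher side of this distribution and TRPM1 near 0.

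**Figure D4:**
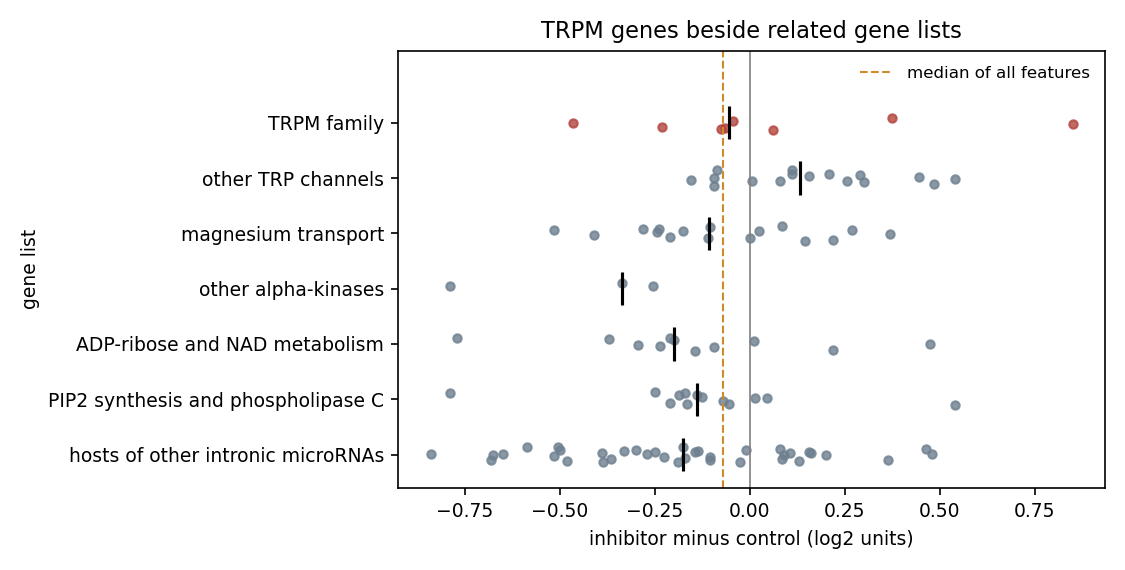
Log2 difference (inhibitor minus control) of each measured gene in the TRPM family (red) and in 6 related lists (grey), with list medians as black bars and the median of all features as a dashed line at -0.07. Vertical scatter within a row has no meaning. TRPM6 is the rightmost point of the plot, and the family median of -0.055 lies near the dashed line.

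Neighbouring genes were listed beside each host. Whether the chromosome segment of a host differed as a whole was not tested. Next to TRPM3 on chromosome 9, the nearest measured protein-coding genes were KLF9, SMC5 and MAMDC2 on one side and CEMIP2, ABHD17B and C9orf85 on the other. SMC5, a subunit of the SMC5/6 complex, had 6.84 and 7.54 in the inhibitor arrays and 7.94 and 7.84 in the controls (difference -0.70, SE 0.24, adjusted p = 0.22 from limma). MAMDC2 differed by -0.425, C9orf85 by -0.405 and CEMIP2 by -0.18. KLF9 differed by 0.05 and ABHD17B by 0.0. None of these 6 had a difference as high as the 0.38 of TRPM3, which 7.12% of all features reached.

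Next to TRPM1 on chromosome 15, FAN1, CHRFAM7A and TJP1 lay on one side and OTUD7A, CHRNA7 and GOLGA8O on the other. FAN1, a DNA repair nuclease, had 4.16 and 3.54 in the inhibitor arrays and 4.71 and 4.55 in the controls (difference -0.78, SE 0.22, adjusted p = 0.19 from limma). TJP1, a tight junction protein, had 7.91 and 7.98 against 8.45 and 8.49, and GOLGA8O had 5.53 and 5.47 against 4.81 and 5.06. CHRFAM7A is a partial copy of CHRNA7 and GOLGA8O belongs to a family of close copies, so these 3 are uncertain. The flanks of TRPM1 went both ways, with 4 of 6 neighbours at lower inhibitor means, against 59.2% of all features.

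The features most like each host were sought by the root mean square distance between centred values over the 4 arrays, where each value is taken relative to the mean of its feature. For TRPM3 they were SLIT3 at 0.007 log2 units, TNFSF18 at 0.012 and OR2T33 at 0.013. SLIT3, a guidance ligand gene and itself a microRNA host, had 3.09 and 3.2 in the inhibitor arrays and 2.70 and 2.86 in the controls. For TRPM1 they were JCAD at 0.011, LOC730668 at 0.013 and OR1L8 at 0.017. With 4 arrays a close profile is easily found: 10 features lay within 0.026 log2 units of TRPM3 and 12 within 0.033 of TRPM1.

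Markers of cell types known for TRPM1 or TRPM3 were checked for the origin of the signal. Of 9 measured melanocyte markers 6 were in the dimmest quartile, among them TYR, TYRP1 and PMEL, while MITF and SOX10 were above the median. Their mean log2 value was 3.99 and 3.97 in the inhibitor arrays and 4.08 and 4.10 in the controls. Of 7 markers of retinal pigment epithelium or choroid plexus 5 were in the dimmest quartile, RPE65 and OTX2 included, and their mean was 3.79 and 3.65 against 3.65 and 3.65 in the controls. RPE65 had 3.75 and 3.42 against 3.39 and 3.32, OTX2 had 3.48 and 3.55 against 3.15 and 3.43, and TTR had 4.53 and 4.03 against 4.18 and 3.95. Their part in the TRPM3 difference was not tested.

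The remaining markers were counted in the same way, and in the reported fit 0 passed an adjusted p of 0.05 in any list. Of 10 carcinoma markers 2 had higher and 8 lower inhibitor means, with a median of -0.18 (-0.07 after quantile normalization). WT1 had 6.11 and 6.30 in the inhibitor arrays and 6.81 and 6.71 in the controls (difference -0.555, adjusted p = 0.18 from limma), KRT7 had 10.30 and 10.34 against 10.69 and 10.75, and MUC16 had 4.35 and 4.42 against 4.68 and 4.86. These 3, named for the largest statistics of the list, had no overlap and an unadjusted p under 0.05. Over the list, 6 of 10 genes had both inhibitor arrays below both controls and 0 above, against 33.8% and 16.5% of all features. Of the 10 genes 4 lay in the brightest quartile, where these shares were 61.6% and 8.63% of features. An unadjusted p under 0.05 was found for 3 lower and 0 higher genes, against 12.8% and 5.11%. KRT7 was the 1 of 10 that passed an adjusted p of 0.05 with an intensity trend, against 6.09% of features lower in that fit. With quantile normalization and that trend 0 of 10 passed. For 6 endothelial markers the counts were 4 higher and 2 lower (median 0.045), and the members differed widely. CDH5, VE-cadherin, had 7.01 and 7.03 in the inhibitor arrays and 8.13 and 8.06 in the controls (difference -1.075, SE 0.14, adjusted p = 0.10 from limma). It was the largest difference in any list here. CDH5 was the 1 of 6 endothelial markers that passed with an intensity trend, against 6.09% of all features lower in that fit. PECAM1 had 4.53 and 4.0 against 3.78 and 3.81, and CLDN5 had 4.91 and 4.91 against 4.70 and 4.71. For 6 leukocyte markers 5 were higher and 1 lower (median 0.10), with CD3E at 5.04 and 4.91 against 4.53 and 4.76 and CD14 at 5.60 and 5.03 against 5.08 and 4.97. For 5 fibroblast markers 1 was higher and 4 lower (median -0.17). PDGFRA had 3.73 and 3.88 against 4.36 and 4.42, PDGFRB had 3.58 and 3.71 against 4.10 and 3.89, and DCN had 4.52 and 4.32 against 4.53 and 3.98. Melanocyte markers had 2 higher and 7 lower means (median -0.11), and markers of retinal pigment epithelium or choroid plexus 4 and 3 (median 0.15). The melanocyte receptor GPR143 had 2.89 and 2.95 in the inhibitor arrays and 3.15 and 3.47 in the controls, and OCA2 had 3.17 and 3.33 against 3.33 and 3.39. PTPRC, the common leukocyte antigen, had 2.87 and 3.03 in the inhibitor arrays and 2.90 and 2.77 in the controls, in the dimmest quartile. Of the 6 leukocyte markers 2 lay in that quartile, while CD79A was above the median of features and CD68 in the brightest quartile.

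**Figure D5:**
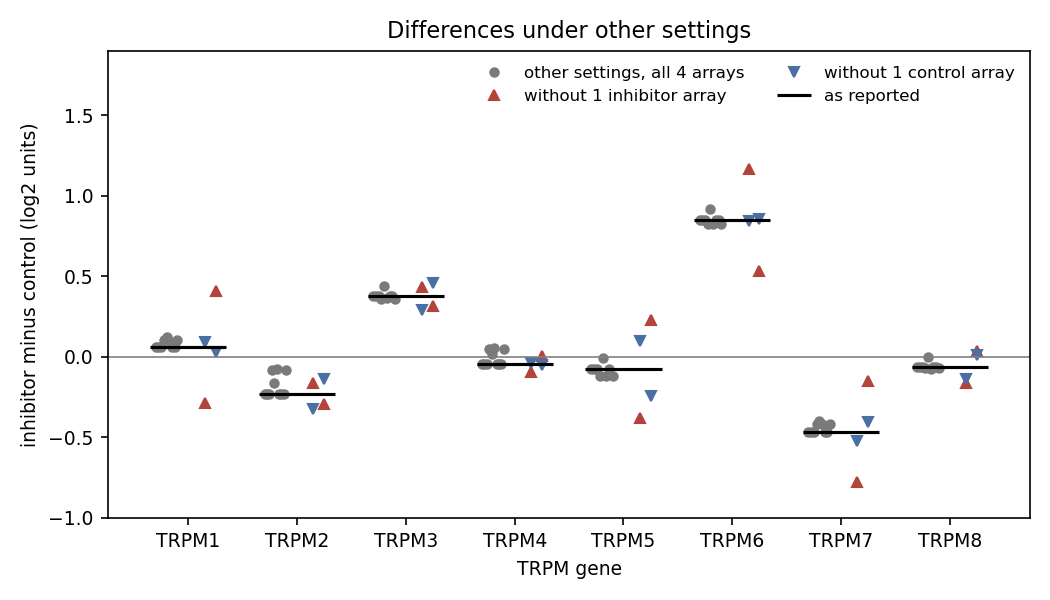
Log2 difference (inhibitor minus control) of each TRPM gene as reported (black bar), under the other settings that keep all 4 arrays (grey), without 1 inhibitor array (red triangles up) and without 1 control array (blue triangles down). TRPM3 and TRPM6 stay above 0 and TRPM2 and TRPM7 below 0 throughout, while the other 4 genes reach or cross 0 under at least 1 setting.

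Across the settings tried, TRPM3 ranged from 0.36 to 0.44 with all 4 arrays and from 0.29 to 0.46 with 1 array left out, always above 0. TRPM6 ranged from 0.82 to 0.915 and from 0.535 to 1.165, also above 0. TRPM2 and TRPM7 stayed below 0, with ranges over fits without 1 array of -0.325 to -0.135 and -0.78 to -0.15. No TRPM gene passed an adjusted p of 0.05 under any of these settings, and the lowest adjusted p of TRPM3 was 0.18.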

How the data were processed

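Total RNA from HeyA8-MDR cells was measured on 4 Affymetrix Human Clariom S arrays, 2 with the miR-204-5p inhibitor and 2 with the control inhibitor. Per the submitters' processing notes, the authors used RMA (background correction, quantile normalization, probe summary) and Transcriptome Analysis Console 4.0, and they deposited log2 values. Over features, the deposited values had SDs of 2.077 and 2.132 on the inhibitor arrays and 2.196 and 2.207 on the controls. Upper quartiles were 7.18 and 7.22 against 7.34 and 7.39, so the 4 distributions did not coincide. How this relates to the dependence of the difference on level was not tested. Parameters and genome build are not given in the sources used here. Symbols came from the platform annotation (17709 features with 1 symbol, 0 with several, 3739 with none); the brightest feature stood for a symbol.

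The comparison used limma 3.58.1 (R 4.3.3) over all 21448 features, without a filter or replicate block. P-values were two-sided and Benjamini-Hochberg adjusted over all features at a threshold of 0.05, with 2 residual and 4.78 prior degrees of freedom. The fit was tested on simulated data with the same spread in both groups and no dependence of the difference on level. The real arrays differ in both respects, so that test does not show how the fit performs on them. An exact permutation of 2 against 2 arrays cannot go below p = 0.333, and the number of arrays limits precision. Members and lists were chosen with earlier results of these data known; lists are described by counts and medians, without a set test. Named genes were all members, up to 3 per list by moderated statistic, all of lists with 5 or fewer, the nearest 3 measured neighbours per side of each host, its 3 closest profiles and ABCB1; carcinoma markers KRT8, KRT18, PAX8, EPCAM and CDH1, the hosts PTK2 and IGF2, the melanocyte genes TYR, TYRP1, PMEL and SOX10, and single genes given for contrast were added after their values were seen. Neighbours and sequences came from RefSeq GRCh38.p14. Alternatives were an intensity trend, a robust prior, a replicate block, quantile normalization, equal medians, cyclic loess, filters on dim features, an ordinary test and leaving out each array.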

Additional observations from a re-analysis of the deposited data

How the results depend on the processing

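Of 105 recomputed values of the 8 TRPM genes, 94 kept their direction and their side of the threshold, 10 changed sign and 1, TRPM8 with equal array medians, was 0.0; 0 passed an adjusted p of 0.05 in limma. TRPM4 was 0.0469 after quantile normalization, with and without an intensity trend, 0.02 with equal array medians and 0.0528 after cyclic loess. Without 1 array the differences ranged from -0.29 to 0.41 for TRPM1, -0.095 to 0.005 for TRPM4, -0.38 to 0.23 for TRPM5 and -0.165 to 0.035 for TRPM8; the cause was not tested. The count of features past an adjusted p of 0.05 was 11 as reported, 1525 with an intensity trend (219 higher, 1306 lower), 559 with quantile normalization and that trend (304 higher, 255 lower), 38 over features above the 25th percentile, 1011 above the median (144 higher, 867 lower), 4 with an ordinary test and 0 after quantile normalization (2932 at an unadjusted p under 0.05). It was 0 without each of the 4 arrays, where 924 to 5878 features had an unadjusted p under 0.05, against 3831 with all arrays; such fits have fewer degrees of freedom. With the replicate number as a block it was 0 (3220 unadjusted). Deviations of same-numbered arrays correlated at 0.006. With so few arrays this value cannot decide whether same-numbered arrays shared a culture or a batch, and the labels do not state it. Filtering at the 25th percentile left out TRPM5, and at the median all but TRPM2 and TRPM4, which then have no value. Each symbol had 1 feature, so no other feature could be tried. Signal over background was not analysed here and limits the dim genes TRPM3, TRPM5 and TRPM6.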
